A study of Rattus norvegicus with 12 samples.

Results

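The comparison described here is that of all livers injected with NDEA with the livers of the saline Control group, and it takes in 12 of the 12 libraries of the series. Members were chosen by treatment alone: 9 injected livers (3 from each of 3 groups) and 3 Control livers. All animals were male Wistar rats, and the RNA came from liver pieces taken at week 20. The 3 injected groups all received NDEA intraperitoneally at 25 mg/kg with 2 doses per week over weeks 2 to 9, and were given different drinks: water in the NDEA group, an infusion of the common tea FYT in the NDEA + FYT group, and an infusion of the EGCG-rich tea CFT-1 in the NDEA + CFT-1 group. The Control rats drank water and were injected with saline on the same schedule, so they are livers without NDEA and not livers without injection. The question is which differences from Control were still present in every injected group at week 20, 11 weeks after the last week of injections, whatever the rats drank. The labels count 3 liver samples in each group and the methods speak of 3 biological replicates, but neither says that each came from a different rat. The p-values therefore measure the spread between these samples. The labels and the methods call them liver samples and do not say how they were picked or whether tumor nodules were among them, although the study speaks of liver tumors where it compares the NDEA group with Control, and fewer cells of a type cannot be told apart from less RNA per cell in such bulk samples.

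NDEA (N-nitrosodiethylamine) is a carcinogen that liver cytochrome P450 enzymes, CYP2E1 among them, convert into a reactive ethylating agent. The ethylated DNA bases that result can give mutations when hepatocytes divide, and repeated dosing in rats leads through foci of altered hepatocytes to hepatocellular tumors. Injury, regeneration, inflammation and fibrosis accompany this course, so a liver sampled long after the last dose can carry changes of its own that differ from the acute response to the chemical.

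Expression was deposited as FPKM, a read count divided by the length of the gene and by the total of the library, for 34194 IDs. Ensembl IDs of rat genes make up 32402 of these, and the other 1792 are identifiers of their own that no source used here explains. The deposited values do not pair these IDs with gene symbols, and the gene tables used here hold no Ensembl IDs, so 0 IDs could be given a name. Lists of liver cell markers, of P450 and conjugating enzymes and of preneoplastic genes were therefore not used, the labelled tissue was not checked against its markers, and only 4 IDs are printed. The FPKM values moved in whole steps of 1 read, which gave back the reads for 11852 of 11854 genes tested (99.98%). The steps imply that the values of a library were divided by a total of between 15495482 reads in NDEA replicate 1 and 25718747 in NDEA + CFT-1 replicate 1. At these totals 1 read on a gene of 2 kb is worth 0.0194 to 0.0323 FPKM.

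Some libraries stood apart, and each Control liver lay closest to an injected liver. Distances between livers were Euclidean distances over log2(FPKM + 1) of the genes tested, after each library was scaled by the median of its ratios to the mean library. NDEA replicate 1 lay 74.2 to 106 units from the other 11 livers, and NDEA + CFT-1 replicate 2 lay 62.1 to 87.8 units away. The 3 NDEA + FYT livers lay closest together, at 38.8 to 44.6 units. Control replicate 1 lay 45.4 and 49 units from NDEA + FYT replicate 1 and NDEA + CFT-1 replicate 1, and 49.9 units from its nearest Control liver. Control replicate 3 lay 51.9 and 52.4 units from NDEA + CFT-1 replicates 1 and 3, and 56.4 units from its nearest Control liver. Control replicate 2 lay nearer to 4 injected livers, at 41.4 to 45.1 units, than to its nearest Control liver at 49.9 units. The results below are given with all 12 livers, and some of them also without these libraries. The widths of the intervals, the counts of each injected group against Control and the counts by sign are given with all 12 livers only.

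**Figure D1:**
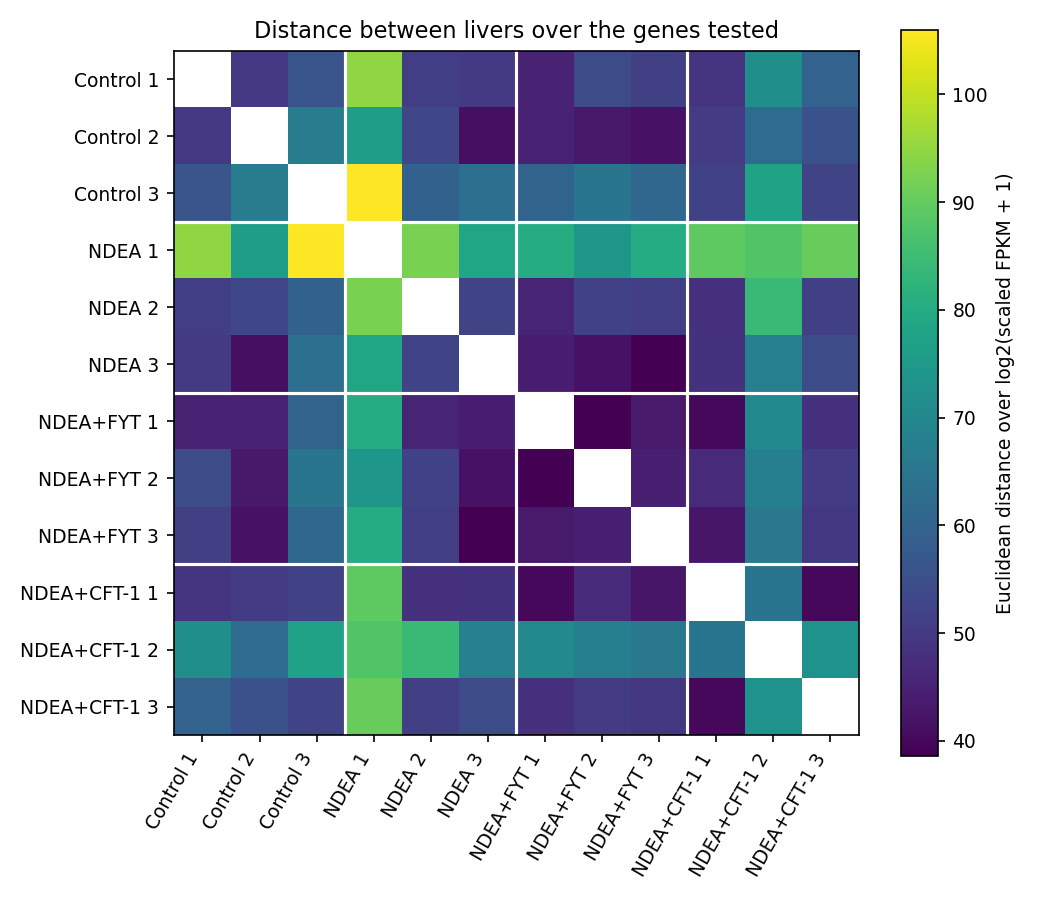
Euclidean distance between each pair of the 12 livers over log2(scaled FPKM + 1) of the 11854 genes tested (color scale, no unit), with white lines between groups. NDEA replicate 1 and NDEA + CFT-1 replicate 2 form bright bands, and each Control liver is darker against at least 1 injected liver than against the other Control livers.

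Across all genes, the distances from injected to Control livers overlapped the distances among the Control livers. The 27 pairs of an injected and a Control liver had a median distance of 54.2, against 56.4 for the 3 pairs within Control and 51.4 for the 27 pairs between injected groups. The distance between the Control mean and the mean of the 9 injected livers was 29.8, and 80 of the 220 ways to choose 3 of the 12 livers as Control gave a distance as large (exact permutation test, one-sided for a larger distance, p = 0.364, smallest possible p 0.00455). Without Control replicate 2 the distance was 40.8 with p = 0.2 in the same exact test, and over the 12 fits that each left out a liver p lay between 0.2 and 0.545.

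No single gene differed between the injected and the Control livers at an adjusted p-value under 0.05. Of the 11854 genes whose FPKM averaged 1 or more, limma called 0 (0%), with a smallest Benjamini-Hochberg adjusted p of 0.969. At an unadjusted p under 0.05 there were 534 genes, or 4.50% of those tested, of which 289 were higher and 245 lower in the injected livers. The p-values were spread almost evenly, with 534 genes in the lowest bin of 0.05 and 549 to 669 genes in each of the other bins. A fit of the recovered reads by limma's voom method, which weights each value by its read depth, also called 0 genes, with 512 at an unadjusted p under 0.05. Thus 0 genes met the definition of a lasting change set for this comparison: called, with no overlap between injected and Control livers and with the same direction in all 3 injected groups. Without Control replicate 2, limma called 2 genes at an adjusted p of 0.0176, both higher in the injected livers.

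The size of the changes that these livers could still hold was bounded for most genes. The median standard error of the difference was 0.18 on the log2(FPKM + 1) scale, and the median half-width of its 95% interval was 0.39. For 10380 genes (87.6%) the interval lay within 2-fold in either direction, and for 6791 genes (57.3%) it lay within 1.5-fold. For the remaining 1474 genes a lasting difference of more than 2-fold was neither called nor bounded by these 12 livers. These intervals are not adjusted for the number of genes, and the log2(FPKM + 1) scale understates the fold change of genes with a low FPKM.

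The 3 injected groups, set side by side, each gave 0 called genes against the same Control livers. At an unadjusted p under 0.05, NDEA had 541 genes higher and 417 lower than Control (smallest adjusted p in limma 0.594). NDEA + FYT had 201 higher and 187 lower (0.999), and NDEA + CFT-1 had 255 higher and 313 lower (0.666). In all, 2770 genes were higher than Control in all 3 group means, 2692 were lower in all 3 (46.1% with the same sign), and 6392 were mixed. The 3 differences share the same Control livers, so many genes agree in sign without any change, and these counts show none. The drink was tested by the F test of NDEA + FYT and NDEA + CFT-1 with NDEA in the same fit, in which the Control mean was not compared but the Control livers still entered the scaling, the filter and the estimate of the spread. Of the same 11854 genes it called 0 (0%), with a smallest adjusted p of 0.43 in limma and 930 genes (7.85%) at an unadjusted p under 0.05. The voom fit called 0 as well, with 894 at the unadjusted threshold. In the limma fit of FPKM, the 930 genes at the unadjusted threshold became 580 of 11938 genes without NDEA + CFT-1 replicate 2 and 582 of 11650 without NDEA replicate 1 as well. Leaving out a Control liver gave 792 to 1118. Without NDEA replicate 2 there were 1233, and without NDEA + FYT replicate 2 there were 703, in the same fit. Without NDEA + FYT replicate 3 it called 1 gene, with an adjusted p of 0.00159. With all 12 livers a difference by drink was thus not shown for any gene, which does not show that the groups were alike.

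**Figure D2:**
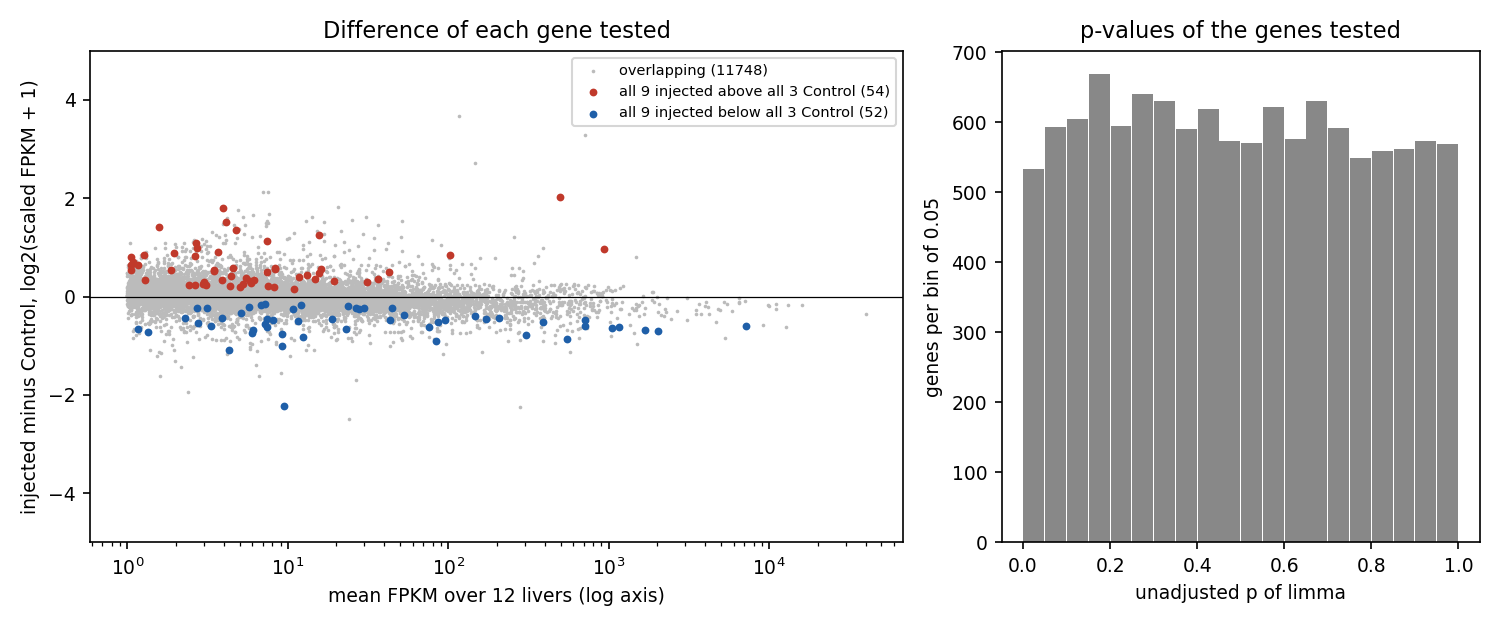
Left, difference of each gene between the mean of the 3 injected groups and Control on the log2(scaled FPKM + 1) scale, against its mean FPKM over 12 livers (log axis), with genes whose injected livers all lay above (54, red) or below (52, blue) all Control livers. Right, number of genes in each bin of 0.05 of limma's unadjusted p, where the lowest bin holds 534 genes and does not rise above the others.

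For 106 genes the 9 injected livers did not overlap the 3 Control livers, which is 0.894% of the genes tested. Some genes separate in this way by rank alone, without any change. The count of 106 was not tested against that and shows no lasting change. All 9 lay above all 3 Control livers for 54 genes (0.456%) and below them for 52 genes (0.439%). The absolute difference of the 106 genes ranged from 0.16 to 2.22 with a median of 0.5, against a median of 0.13 over all genes tested. Only 11 of them differed at least 2-fold in the mean, 8 higher and 3 lower. The genes that were higher had a median level of 4.66 FPKM, below the 7.02 FPKM of all genes tested, and those that were lower had a median level of 15.7 FPKM. IDs that are not from Ensembl made up 6.6% of the 106 genes and 5.85% of those tested. Without scaling between libraries 47 of the 106 genes still had no overlap, and after quantile normalization 61 did. The split by direction also moved: without scaling 106 genes were higher and 17 lower, and with a mean FPKM of at least 5 they were 29 and 47. No overlap is what chose these genes, so their size and direction are a description without a test.

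Within the non-overlapping genes, the medians of the 3 injected groups lay close together. For the 54 higher genes the median difference from Control was 0.55 in NDEA, 0.45 in NDEA + FYT and 0.43 in NDEA + CFT-1. For the 52 lower genes it was −0.57, −0.5 and −0.41 in the same order. Because these genes were chosen for having all 9 injected livers on 1 side of Control, the choice favours genes whose 3 injected groups are alike, and these medians say nothing of the drink. By liver, the median over the 54 higher genes ran from 0.39 in NDEA replicate 2 to 0.77 in NDEA replicate 1 above the Control mean, and the other 7 injected livers lay between 0.41 and 0.46. The Control liver closest to the injected ones was replicate 2 for 26 of the 54 higher and 26 of the 52 lower genes. It was replicate 1 for 19 and 16 and replicate 3 for 9 and 10. Over all genes tested, replicate 2 was the highest Control liver for 36.2% and the lowest for 35.2%.

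Of the 54 higher IDs, those with the smallest unadjusted p were ENSRNOG00000038738 and Novel00839, and of the 52 lower ones Novel00095 and ENSRNOG00000058203. None of the 4 was called, each with an adjusted p of 0.969 in limma's test. They are given below by their values in every liver, as scaled FPKM, with the reads behind them. Because they were chosen for no overlap and a small p, their differences and intervals are descriptions and not tests.

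ENSRNOG00000038738 had a scaled FPKM of 0.961, 1.67 and 0.468 in Control replicates 1, 2 and 3. It was at 6.72, 3.72 and 2.46 in NDEA, at 3.09, 7.75 and 3.33 in NDEA + FYT, and at 6.03, 4.67 and 6.35 in NDEA + CFT-1. Every injected liver thus lay above the highest Control liver, replicate 2, and the livers of NDEA and NDEA + FYT spread more widely than those of NDEA + CFT-1. The difference from Control was 1.51 ± 0.29 (SE, 9 livers with 3; 95% interval 0.88 to 2.15) on the log2(FPKM + 1) scale, and by group it was 1.35, 1.44 and 1.75. Before scaling the Control livers were at 0.949, 1.64 and 0.375 FPKM, and the injected livers carried this ID past the filter on mean FPKM. The reads were few, from 3 to 10 in the Control livers and from 18 to 51 in the injected livers. This ID showed the largest difference of the 4, and the voom fit of its reads gave a log2 difference of 2.22.

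Novel00839 was at 0.157, 0.549 and 0.469 scaled FPKM in Control. It was at 2.05, 1.75 and 1.33 in NDEA, at 1.41, 1.91 and 0.952 in NDEA + FYT, and at 1.71, 1.56 and 0.865 in NDEA + CFT-1. The lowest injected livers, replicate 3 of both tea groups, were still above the highest Control liver. The difference was 0.84 ± 0.18 (SE; 95% interval 0.45 to 1.23), with group differences of 0.97, 0.79 and 0.77. Every Control liver was below 1 FPKM, so the ID passed the filter on mean FPKM only through the injected livers. Because the level was low, adding 1 FPKM before the logarithm shrank this value: the voom fit of the reads gave a log2 difference of 2.06. Reads numbered 8 to 23 in Control and 39 to 101 in the injected livers.

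Novel00095 was the best covered of the 4, with 593 to 1784 reads per liver. Its scaled FPKM was 9.21, 10.4 and 6.81 in Control, 6.64, 5.7 and 6.69 in NDEA, 5.16, 5.44 and 4.19 in NDEA + FYT, and 2.75, 3.86 and 4.02 in NDEA + CFT-1. Control replicate 3 lay only 0.02 above the highest injected liver on the log2 scale, and before scaling, at 5.45 FPKM, it was below 5 of the injected livers. The difference was −0.74 ± 0.14 (SE; 95% interval −1.06 to −0.43). By group it was −0.4 in NDEA, −0.72 in NDEA + FYT and −1.1 in NDEA + CFT-1, and the F test between the injected groups gave an unadjusted p of 0.00687 and an adjusted p of 0.584 in limma. The 3 NDEA + CFT-1 livers were below the other 6 injected livers for this ID.

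ENSRNOG00000058203 was at 2.27, 2.32 and 2.44 scaled FPKM in Control, an SD of 0.04 on the log2 scale. It was at 0.53, 1.48 and 1.31 in NDEA, at 1.1, 1 and 1.03 in NDEA + FYT, and at 1.13, 0.901 and 1.08 in NDEA + CFT-1. The 3 groups were close to each other, with differences from Control of −0.7, −0.71 and −0.72. Over the 9 livers the difference was −0.71 ± 0.15 (SE; 95% interval −1.03 to −0.38), and in the voom fit it was −1.13. The ID rested on 16 to 19 reads in Control and 4 to 11 reads in the injected livers.

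**Figure D3:**
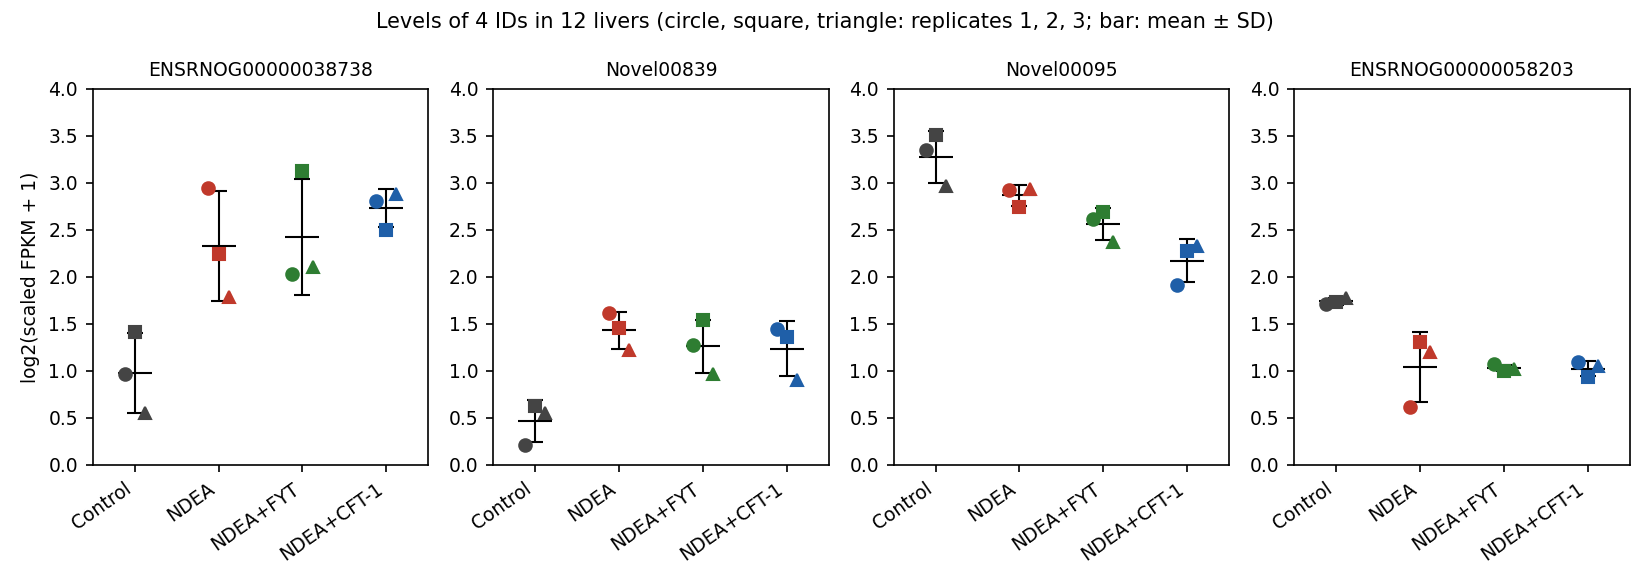
Level of 4 IDs in each of the 12 livers as log2(scaled FPKM + 1), by group, with the mean and SD of each group of 3. For ENSRNOG00000038738 and Novel00839 all injected livers lie above all Control livers, and for Novel00095 and ENSRNOG00000058203 below them.

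Genes were also counted by the size of the difference in each injected group. In all 3 injected groups, 43 genes (0.363% of those tested) differed at least 2-fold from Control in the same direction, 33 of them higher (0.278%) and 10 lower (0.0844%). The count was 114 without Control replicate 2, 27 without NDEA replicate 1, 135 with a pseudocount of 0.1 and 153 in the voom fit. Without both NDEA replicate 1 and NDEA + CFT-1 replicate 2, 15 of the 33 higher genes were still at least 2-fold higher in every injected group. Only 5 of the 43 genes, 4 higher and 1 lower, were among those with no overlap. Control replicate 2 was the highest Control liver for 32 of the 33 higher genes (97%), against 36.2% of all genes tested. For the 10 lower genes it was the lowest Control liver in 6, beside 3 for Control replicate 3 and 1 for Control replicate 1, and 35.2% of all genes tested had it as the lowest. For the higher genes Control replicate 2 was above at least 1 injected liver for 29 of the 33. The share over all genes was not counted, and a Control liver above at least 1 of the 9 is common by rank alone. Control replicates 1 and 3 both lay below all 9 injected livers for 28 of the 33. In the fit without Control replicate 2 this held for 513 of 11867 genes, and choosing genes on the Control mean favours it.

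The median of these 33 genes, relative to the mean of Control replicates 1 and 3, was 1.66 in Control replicate 2 on the log2 scale. In the injected livers it ran from 0.81 in NDEA replicate 2 and 1.71 in NDEA + FYT replicate 1 up to 2.99 in NDEA + FYT replicate 2 and 3.41 in NDEA replicate 1. Control replicate 2 thus lay above 1 and below 8 of the injected livers. For the 10 lower genes its median was −1.58, and the injected livers lay between −2.63 and −1.41. The genes were chosen on the difference from the Control mean, so that a higher level in the injected livers is no finding, but the choice did not fix which Control liver overlapped. Control replicates 1 and 3 are themselves the reference, so their medians mirror each other around 0 by construction. They were 0 and 0 for the higher genes and −0.14 and 0.14 for the lower, and cannot show that these 2 livers lie together.

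Leaving out Control replicate 2 favours genes for which it lies near the injected livers. The 2 genes that limma called only without this liver are therefore given as a description. For the first, the scaled level on the log2 scale was 1.04 and 0.97 in Control replicates 1 and 3, 3 in Control replicate 2, and 2.46 to 3.68 in the injected livers. For the second it was 2.97 and 3.8, then 7.11, and 6.42 to 8.04, which is 139 and 232 reads in Control replicates 1 and 3 and 2304 in replicate 2. With all 12 livers their unadjusted p was 0.00167 and 0.00259 in limma. The group of each of the 12 livers rests on its label alone, and every difference given here takes the labels as right. Whether they are right was not tested for any liver. The scaling factor of Control replicate 2, 0.98, lay between those of Control replicates 1 (0.99) and 3 (0.8).

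**Figure D4:**
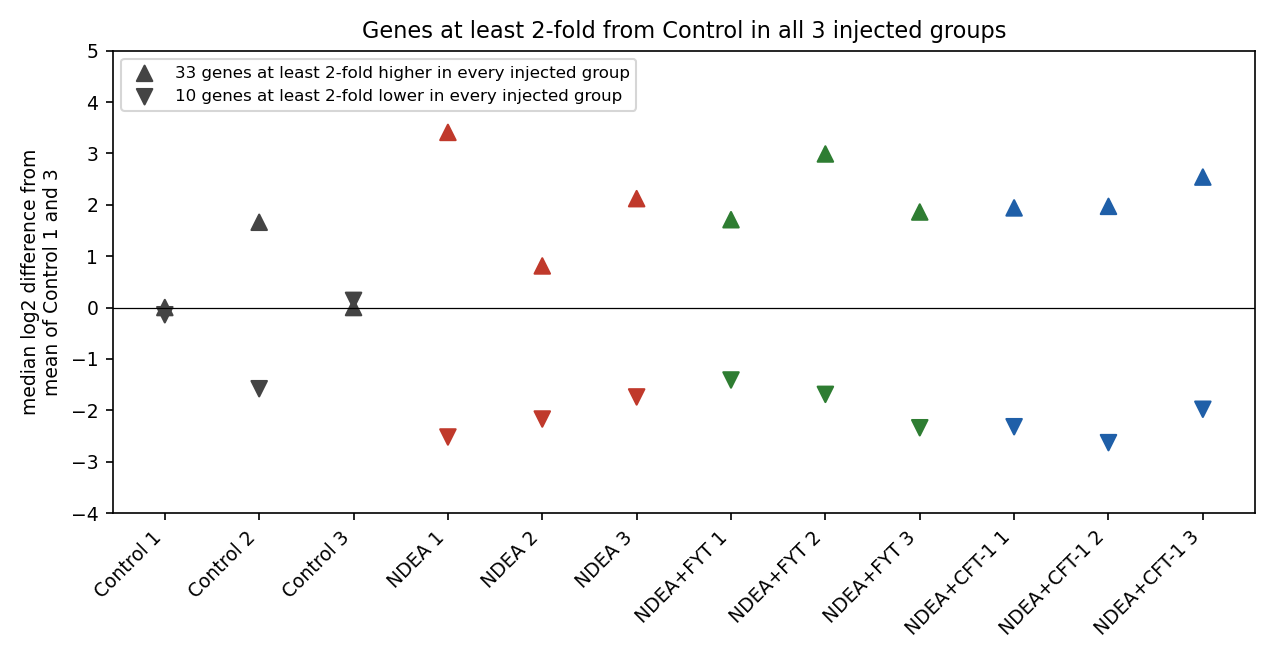
Median log2 difference of each of the 12 livers from the mean of Control replicates 1 and 3, for the 33 genes at least 2-fold higher (upward triangles) and the 10 at least 2-fold lower (downward triangles) than Control in all 3 injected groups. Control replicate 2, at 1.66 and −1.58, lies nearer to most injected livers than to Control replicates 1 and 3; for the 10 lower genes it was the lowest Control liver in 6.

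The counts depended on which livers were in the comparison. Without Control replicate 2, the number of genes with no overlap went from 106 to 874 (513 higher and 361 lower), against 236 without Control replicate 1 and 332 without Control replicate 3. With a liver left out on either side, fewer livers have to be separated, so at the same scaling and filter the count cannot fall. This holds for injected livers as well as for Control livers. Whether any rise goes beyond what follows from this was not tested. Without NDEA + CFT-1 replicate 2 there were 317 such genes, and without NDEA replicate 2 there were 186. Each of the other 7 injected livers left out gave 115 to 146 genes. At an unadjusted p under 0.05 the number of genes was 917 without Control replicate 2, 832 without NDEA replicate 2 and 307 without Control replicate 1. Leaving out both NDEA replicate 1 and NDEA + CFT-1 replicate 2, the livers farthest from the rest, gave 0 called genes (smallest adjusted p in limma 0.288), 1015 at an unadjusted p under 0.05 and 406 with no overlap.

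**Figure D5:**
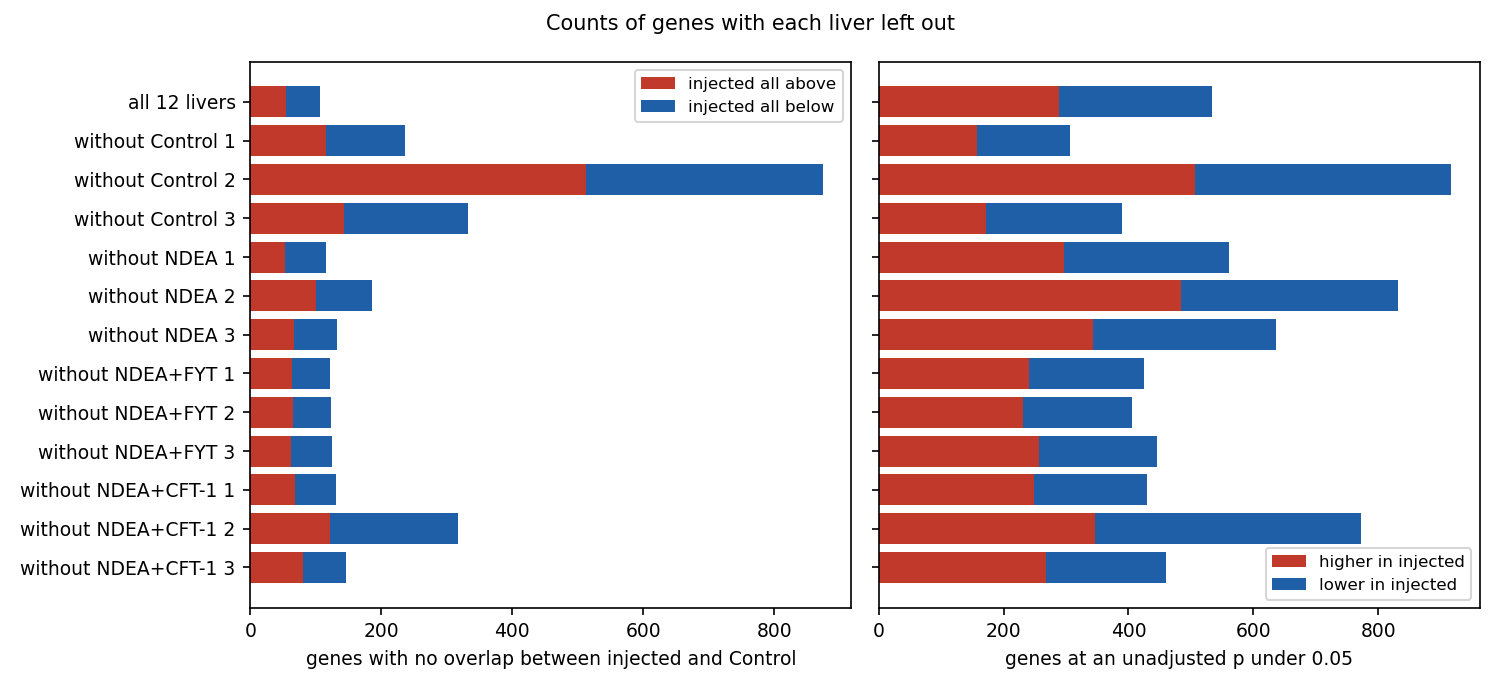
Number of genes with no overlap between injected and Control livers (left) and at an unadjusted p under 0.05 in limma (right), with all 12 livers and with each left out in turn, split by direction. The bars without Control replicate 2 are the longest, at 874 and 917 genes.

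The difference from Control moved with abundance, and its sign for the most abundant genes depended on the scaling. The 100 genes with the highest mean FPKM had a median difference of −0.19, and 82% of them were lower in the injected livers, while the 3854 least abundant genes had a median of 0.06. Without scaling, which moved the median of all genes to 0.14, these medians were −0.03 and 0.16, and after quantile normalization, which gives every library the same distribution of values, they were 0.02 and −0.01. By liver, the median of the 100 genes against the Control mean was −0.77 in NDEA replicate 1 and 0.28 in NDEA + CFT-1 replicate 2, and it was 0.18 in Control replicate 3. Without Control replicate 3 the median difference of the 100 genes was −0.08, and over the other fits that each left out a liver it was −0.28 to −0.13.

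Few IDs were listed at 0 in all livers of only 1 side. Over all deposited IDs, 4 were listed at 0 in all 3 Control livers and above 0 in all 9 injected livers, and 3 showed the reverse. The 4 IDs rested on 18 to 25 reads over the 9 livers, from 1 to 9 reads per liver, and only 1 of them passed the filter of a mean FPKM of 1. Each of the 3 reverse IDs rested on 1 read in each Control liver. With the filter on low values left out, limma called 3 of 24718 genes, all lower in the injected livers, with adjusted p from 6.21e-05 to 0.0382. These had 1 or 2 reads in each Control liver and at most 1 read in an injected liver.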

How the data were processed

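Livers were sequenced as paired reads (whether strand was used in counting is not given in the sources used here), with 3 libraries in each of 4 groups taken from the sample titles. Per the methods and the submitters' processing notes, the authors trimmed reads with Trimmomatic, mapped them with HISAT2 to Rnor_6.0, removed PCR duplicates, counted uniquely mapped reads with HTSeq 0.6.1 and deposited FPKM, 1 column per library. Removing duplicates can lower the values of the most abundant genes.

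From the deposited FPKM, genes with a mean of at least 1 over the 12 libraries were kept, libraries were scaled by the median of ratios (factors 0.8 to 1.3), and log2(FPKM + 1) was fitted on 4 groups in R 4.3.3 by limma 3.58.1, with lmFit and a trended eBayes. The contrast was the mean of the 3 injected group means minus the Control mean, and a gene was called at a Benjamini-Hochberg adjusted p under 0.05. Standard errors and 95% intervals are those of this fit, with 11.04 degrees of freedom. The distance test enumerated all choices of 3 Control livers. Simulated data with known changes were used to test the scripts.

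Whole reads were recovered from the FPKM steps (tolerance 0.0001 reads, and lengths whole to 0.01 bases for 99.99% of genes) and fitted with limma's voom as an added alternative. The intervals come from the spread between livers. The reads are without molecular identifiers, so a number of reads bears on counting error only.

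The members, the lists and the tests were chosen with earlier results of these data known. The genes to be printed were the IDs with no overlap between injected and Control livers and the smallest unadjusted p, 2 in each direction. The lists of liver cell types and pathways planned for this comparison were not used, because the IDs could not be paired with symbols. Alternatives planned were a pseudocount of 0.1, no filter, a mean FPKM of at least 5, no scaling, quantile normalization, an untrended eBayes, a block for the replicate number, 2 groups only, library weights and each library left out. The voom fit, gene-by-gene library weights, the counts at an unadjusted p and at 2-fold, the leave-outs of the distance and of the abundance medians, and the joint omission of 2 libraries were added after seeing the data. Plots were drawn with matplotlib 3.10.9.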

Additional observations from a re-analysis of the deposited data

Results flagged for a closer look

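Among the 9 injected livers, NDEA replicate 1 stood apart on the first principal component of the genes tested (34.4% of the variance): its gap to the next liver was 0.617 of the range of the 9 scores, above the limit of 0.493 for 9 samples. NDEA + CFT-1 replicate 2 stood apart in the same way on the second component (18% of the variance), with a gap of 0.649 of the range. Chance flags about 1 in 20 such groups, and 11 measures were looked at. The components were fitted to these same livers, so their scores can pass the limit more often than that. The median distance to the other livers did not pass this limit, with a gap of 0.408 of the range at NDEA replicate 1. Neither did the median of the 100 most abundant genes (0.391), the number of IDs above 0, the depth, the scaling factor or the levels of the 4 printed IDs.

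Below the filter on low values, 3 IDs were listed at 0 in all 3 Control livers and above 0 in all 9 injected livers. They rested on 22, 18 and 23 reads over the 9 livers.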

How the results depend on the processing

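The 4 printed IDs were chosen for having no overlap, which fixes their direction under most alternatives, and none of the 93 values of these IDs passed the threshold except under library weights estimated by limma's default method, which stopped before it converged. Under the others their adjusted p in limma ran from 0.103 to 0.999. That method called 2069 genes, 91 of them lasting, and 3859 between the injected groups, with 4110 genes at an unadjusted p under 0.05 and 93 at 2-fold in all groups. Weights from the gene-by-gene method called 0 (smallest adjusted p 0.103), with 1737 at an unadjusted p under 0.05. Between the injected groups these weights called 0 in the F test (smallest adjusted p in limma 0.0687), with 1835 at an unadjusted p under 0.05. Without a filter on low values 3 genes were called, all 3 lasting, 971 were at an unadjusted p under 0.05 and 195 had no overlap. With a mean FPKM of at least 5, 315 genes were at an unadjusted p under 0.05. A pseudocount of 0.1 gave 135 genes at 2-fold in all groups and voom gave 153, against 43. Without scaling the median difference was 0.14, and the genes with no overlap were 106 higher and 17 lower, against 54 and 52. At an unadjusted p under 0.05 they were then 483 higher and 93 lower.

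With each library left out in turn, 0 to 2 genes were called and 0 to 2 were lasting, 0 to 1 differed between the injected groups, 307 to 917 were at an unadjusted p under 0.05, 115 to 874 had no overlap, and 27 to 114 were at 2-fold in all groups. The 2 called genes appeared without Control replicate 2, which also gave the 114, and the 27 came without NDEA replicate 1. Without NDEA replicate 1 and NDEA + CFT-1 replicate 2 together, 1015 genes were at an unadjusted p under 0.05, 406 had no overlap and 28 were at 2-fold. The gene between the injected groups appeared without NDEA + FYT replicate 3. The cause of these shifts was not tested.

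Replicate numbers were not taken to pair the livers: 7 of 18 same-numbered pairs had residual correlations over 0.1 (range −0.45 to 0.26), although all 3 pairs of Control with NDEA + CFT-1 did (0.21, 0.25 and 0.26), and the labels give the numbers no shared origin. With a replicate block 0 genes were called, 489 at an unadjusted p under 0.05. With 3 Control livers, the precision of the Control mean limits every difference.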
